A study of Caenorhabditis elegans with 139 samples.

Results

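Messenger RNA levels of 10 genes that encode proteins of P granules or act in the germline precursor were followed through embryogenesis of the nematode Caenorhabditis elegans. The 10 genes were chosen by name and are 10 of the 20687 gene lines of the table: pgl-1 (ZK381.4), pgl-3 (C18G1.4), glh-1 (T21G5.3), glh-2 (C55B7.1), glh-4 (T12F5.3), meg-1 (K02B9.1), meg-2 (K02B9.2), deps-1 (Y65B4BL.2), nos-2 (ZK1127.1) and csr-1 (F20D12.1). All 10 had counts, from 1269 for meg-2 to 24754 for deps-1 summed over the 139 embryos.

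P granules are membraneless condensates of RNA and protein that mark the C. elegans germ line. The mother loads their components into the oocyte, and in the early cleavages the granules are segregated, division by division, into the germline blastomeres, while maternal RNAs are cleared from the somatic cells. The germline founder cell divides once into a pair of primordial germ cells, which stay arrested for the rest of embryogenesis and attach P granules to their nuclear envelope.

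Each library held 1 embryo, and CEL-Seq, which reads the 3′ ends of polyadenylated transcripts, was used to count its RNA. Embryos were cut out of adult hermaphrodites, washed in bleach solution, staged, kept at 20 °C and frozen, and their RNA was extracted with TRIzol. The protocol describes collection at the 4-cell stage, whereas 2 embryos carry times before it, -50 and -30 min. The labels give no strain and no genotype or treatment that separates the embryos, so age is the only difference the labels name. The labelled ages ran from -50 to 840 min relative to the 4-cell stage, at 86 distinct times.

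Embryos were placed in 7 windows of labelled time. T1 held 17 embryos of -50 to 30 min, T2 held 11 of 40 to 100 min, T3 held 13 of 110 to 190 min and T4 held 30 of 200 to 290 min. T5 held 18 embryos of 300 to 390 min, T6 held 25 of 400 to 590 min and T7 held 25 of 600 to 840 min. A whole embryo was measured each time, so fewer cells with an RNA and less of it per cell cannot be told apart. P-values rest on the spread among the single embryos of each window, whose ages differ too, and the labels do not say whether embryos came from separate mothers or cultures.

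An embryo yielded between 12338 and 4557314 gene counts, the median being 692649, and 13 embryos had under 100000, 6 of them in T1. The samples were divided here by title number into 5 blocks, called title blocks because no label calls them a batch. In title block 1 the labelled times do not follow the title numbers, and most of its embryos are late. Title block 1 supplied 25 of 25 embryos of T7 and 18 of 25 of T6. Title block 5 gave 1 embryo at -50 min, 1 at -30 min and then 1 every 10 min from 0 to 420 min. In 7 embryos the whole profile was most like that of embryos labelled over 100 min later: 4 of title block 1 at 240 and 250 min resembled 420 to 430 min, and 3 of title block 2 at 200, 340 and 400 min were closest to 790 to 800 min with a correlation of 0.44 to 0.54. Results of the 10 genes that change when these embryos are left out are given both ways. Summed over its 5 genes, a list of somatic embryo markers had a median of 65.0 CPM (gene counts scaled to the same total in every embryo) in T1 and 934 CPM in T3, with all 5 detected. Summed over 6 yolk genes of the adult intestine, embryos ranged from 9.16 to 53673 CPM, and 24 sperm genes summed to 0 to 519 CPM.

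The summed level of the 10 genes was lower in each window from T1 to T3. It ran from 719 to 3736 CPM in T1 with a median of 2235, from 233 to 1503 CPM in T2 with a median of 949, and from 157 to 1016 CPM in T3 with a median of 260. In T4 it ran from 41.2 to 3804 CPM with a median of 173, in T5 from 0 to 1611 CPM with a median of 139, in T6 from 42.0 to 1072 CPM with a median of 350, and in T7 from 16.4 to 1665 CPM with a median of 335. Without the embryos off their label, T4 ran from 41.2 to 567 CPM with a median of 155, T5 reached 615 CPM with a median of 135, and T6 reached 696 CPM with a median of 331. The median was highest in T1 and lowest in T5, the ranges of consecutive windows overlapped, and the highest single value of all was that of an embryo off its label in T4. All 10 genes differed among the 7 windows (edgeR quasi-likelihood F-test over 6 coefficients, largest adjusted p 0.0054 for glh-1), as did 93.8% of the 9923 genes tested.

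**Figure D1:**
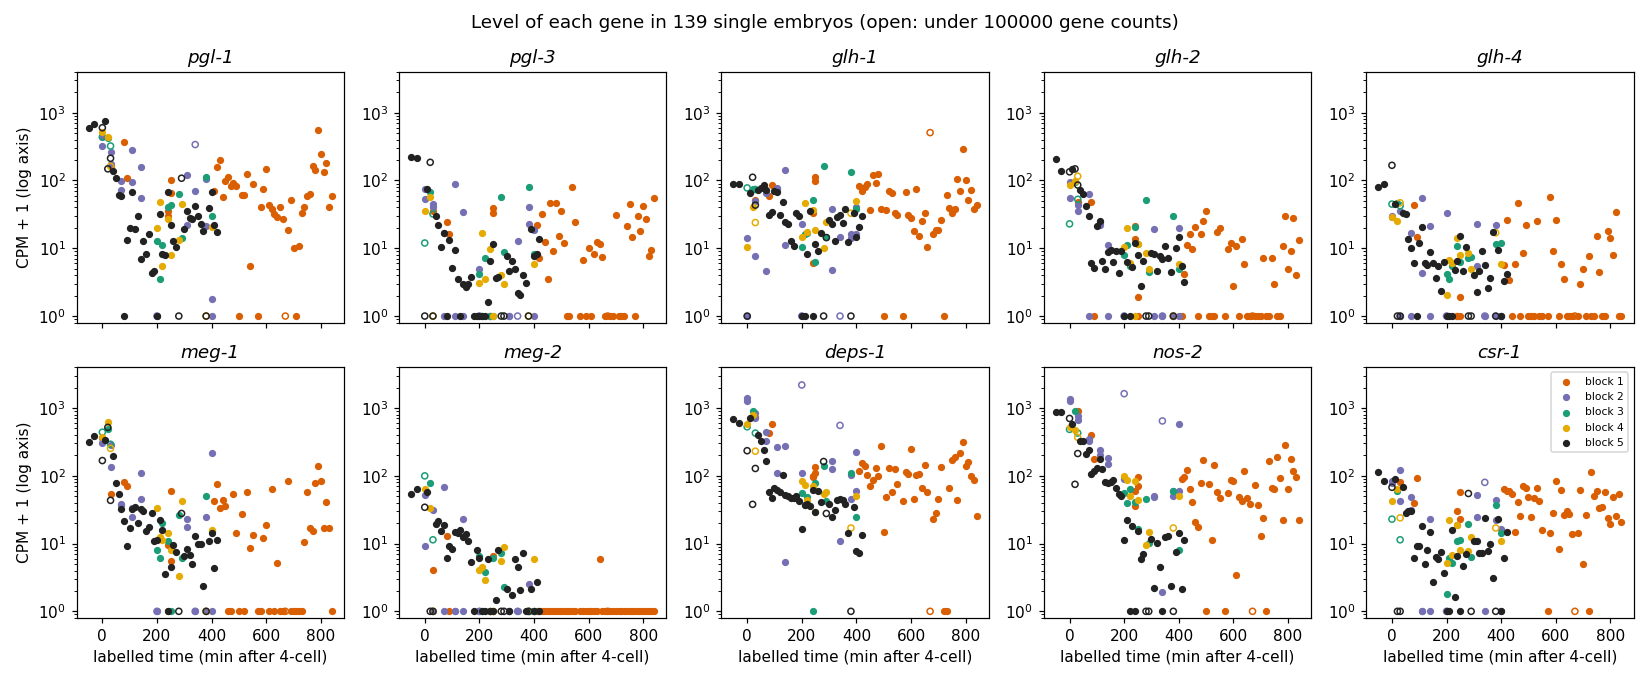
Level of each of the 10 genes in CPM + 1 (log axis) against labelled time in min, 1 point per embryo, coloured by title block, with open points for embryos under 100000 gene counts. Most genes are highest before 30 min and low from 200 min, glh-1 keeps its early level to 70 min, meg-2 is at 0 in nearly all late embryos, and embryos of title block 1 stand above those of title block 5 for nos-2 and deps-1 where both reach 420 min.

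Among the scaffold proteins, pgl-1 and pgl-3 encode related RNA-binding proteins that self-assemble and form the core of P granules. In T1 pgl-1 ran from 147 to 743 CPM with a median of 423, in T2 from 0 to 373 CPM with a median of 70.3, and in T3 from 3.30 to 279 CPM with a median of 18.5. No embryo of T2 reached the median of T1, and 1 of 11 reached its lowest value. Between T1 and T2 pgl-1 fell by 1.67 (SE 0.43, adjusted p = 0.0027), where changes between windows are log2 fold changes from edgeR's quasi-likelihood test with Benjamini-Hochberg adjustment. Levels also differed within T1: the 6 embryos at 30 min had 160 to 321 CPM, whereas 8 of the 9 at 0 to 20 min had 325 to 743 CPM and the ninth, with 27138 gene counts in all, had 147 CPM. Depth was low at 30 min as well. In the embryos there with 23630 and 43602 gene counts, 1 count was worth 42.3 and 22.9 CPM. The difference within T1 was not tested.

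The level of pgl-3 was lower throughout, from 0 to 220 CPM in T1 with a median of 43.7, from 0 to 29.3 CPM in T2 with a median of 15.1, and from 0 to 87.5 CPM in T3 with a median of 1.95. It fell by 2.04 between T1 and T2 (SE 0.54, adjusted p = 0.0037). The 2 earliest embryos, at -50 and -30 min, had 220 and 213 CPM, and the next embryo of the same block with over 100000 counts, at 10 min, had 72.9 CPM. In those 3 embryos pgl-1 was at 586, 688 and 743 CPM. At 10 min pgl-3 was thus below its level in the earlier embryos, in an embryo where pgl-1 was not.

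The MEG proteins are intrinsically disordered proteins of embryonic P granules, and meg-1 and meg-2 lie next to each other on the X chromosome. In T1 meg-1 ran from 42.3 to 616 CPM with a median of 310, in T2 from 8.24 to 193 CPM with a median of 37.9, and in T3 from 9.75 to 110 CPM with a median of 29.5. The 3 embryos at 20 min had 496, 616 and 516 CPM, above the other 14 embryos of T1, whose highest value was 438 CPM. The value of 516 CPM came from the shallow embryo named above for pgl-1. That of 438 CPM came from another embryo with under 100000 gene counts. Levels within T1 were not compared by a test. The level of meg-1 fell by 2.17 between T1 and T2 (SE 0.37, adjusted p = 4.1e-05) and by 1.31 between T3 and T4 (SE 0.43, adjusted p = 0.0151). In T4 its median was 7.82 CPM, and no embryo of T3 was below that level.

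For meg-2 the level in T1 was 0 to 98.6 CPM with a median of 32.2, in T2 0 to 66.7 CPM with a median of 11.8, and in T3 0 to 21.7 CPM with a median of 9.83. The difference between T1 and T2 was -0.96 (SE 0.63, adjusted p = 0.23) and did not pass the test, and the windows overlapped. Counts of meg-2 were found in 15 of 30 embryos of T4, 8 of 18 of T5, 2 of 25 of T6 and 1 of 25 of T7. In T7, 3 counts were worth 2.30 to 76.1 CPM with a median of 5.37, so a lower level was not detectable there. Among the 10 genes it was the one with counts in the fewest embryos, 57 of 139.

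Required for PGL proteins to gather in P granules, deps-1 was among the most abundant of the 10 in T1, at 36.8 to 1399 CPM with a median of 684. In T2 it ran from 45.3 to 578 CPM with a median of 319, and in T3 from 4.33 to 276 CPM with a median of 50.7. Its difference between T1 and T2 was -0.92 (SE 0.40, adjusted p = 0.064), short of the threshold, and without the 6 embryos of T1 under 100000 counts it was -1.29 (SE 0.35, adjusted p = 0.0055). Between T2 and T3 it fell by 1.78 (SE 0.47, adjusted p = 0.0053), and no embryo of T3 reached the median of T2. The gene overlaps Y65B4BL.7 on the other strand in Ensembl, and no source used here says whether reads were counted by strand.

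The germline helicases glh-1, glh-2 and glh-4 encode DEAD-box proteins of the Vasa family that sit in P granules at the nuclear pores. Their transcripts had different courses. In T1 glh-2 ran from 21.9 to 205 CPM with a median of 92.6, in T2 from 0 to 72.5 CPM with a median of 29.0, and in T3 from 0 to 23.9 CPM with a median of 7.97. It fell in both steps, with changes of -1.26 (SE 0.48, adjusted p = 0.037) and -1.77 (SE 0.65, adjusted p = 0.0403). Both calls are near the threshold: the first had an adjusted p of 0.058 without embryos under 100000 counts, and the second an adjusted p of 0.056 with relative log expression factors, 0.053 with spike-in scaling and 0.066 with no filter on low counts.

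By contrast glh-1 was at 0 to 111 CPM in T1 with a median of 49.6 and at 3.61 to 84.3 CPM in T2 with a median of 69.5. Of the 11 embryos of T2, 8 were above the median of T1. The change was 0.70 (SE 0.47, adjusted p = 0.24) and did not pass the test. In T3 glh-1 ran from 9.88 to 141 CPM with a median of 29.6, and in T4 from 0 to 162 CPM with a median of 14.5. Neither step passed the test over all title blocks, at -0.60 (SE 0.45, adjusted p = 0.33) and -0.62 (SE 0.47, adjusted p = 0.34), while within title block 5 both did, at -1.25 (SE 0.35, adjusted p = 0.0063) and -1.26 (SE 0.48, adjusted p = 0.0392).

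The third helicase, glh-4, was at 0 to 166 CPM in T1 with a median of 34.6, at 0 to 43.2 CPM in T2 with a median of 12.6 and at 0 to 55.0 CPM in T3 with a median of 5.01. Its difference between T1 and T2 was -0.96 (SE 0.61, adjusted p = 0.22), and within title block 5 it fell by 1.85 (SE 0.61, adjusted p = 0.0293).

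The Nanos-family RNA regulator nos-2 is supplied as maternal RNA and is translated in the germline founder cell. In T1 it ran from 73.7 to 1357 CPM with a median of 663, in T2 from 106 to 396 CPM with a median of 235.3, in T3 from 49.6 to 240 CPM with a median of 85.8 and in T4 from 0 to 1622 CPM with a median of 36.8. Of the 10 genes it alone was called lower in 3 consecutive steps, with changes of -1.19 (SE 0.31, adjusted p = 0.0033), -1.17 (SE 0.30, adjusted p = 0.0046) and -1.29 (SE 0.44, adjusted p = 0.0224). Only 5 of the 10 genes could be tested in all of these steps. The highest value of T4 came from 1 of the embryos off their label, with 17878 gene counts, and without those embryos the third change was -1.92 (SE 0.37, adjusted p = 7.5e-05). In title block 5 the third step was larger, a fall of 3.31 (SE 0.40, adjusted p = 1.1e-06): the embryo at 190 min had 49.6 CPM, and those at 200, 210, 220 and 230 min had 10.3, 20.9, 0 and 16.9 CPM. The third step did not pass with relative log expression factors (-1.15, adjusted p = 0.071) or DESeq2 (-0.93, adjusted p = 0.138). The gene overlaps him-14 on the other strand.

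The Argonaute csr-1 binds small RNAs that are antisense to germline transcripts. It was at 0 to 120 CPM in T1 with a median of 62.4, at 5.05 to 91.8 CPM in T2 with a median of 29.6, and at 0 to 21.7 CPM in T3 with a median of 4.94. The first difference was -0.51 (SE 0.42, adjusted p = 0.34) and did not pass. Between T2 and T3 it fell by 2.67 (SE 0.63, adjusted p = 0.0022), and no embryo of T3 reached the median of T2. The gene overlaps frpr-10 on the same strand, and reads of the pair may have been assigned to either.

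Across the first step, T1 to T2, 5 of the 10 genes were lower (pgl-1, pgl-3, glh-2, meg-1 and nos-2) and 0 were higher, where 14.5% of the 5636 genes tested were lower and 15.1% higher (adjusted p below 0.05 together with a change of 2 times or more). All 10 genes passed the filter on low counts, which a gene can do through its level in T1 alone. Scaling to the 92 spike-in RNAs moved the split of all calls from 817 lower and 852 higher to 1284 lower and 310 higher and made 6 of the 10 genes lower. Within title block 5, with 6 and 7 embryos, 7 genes were lower, with changes of -2.92 (SE 0.58) for pgl-1 and -2.99 (SE 0.62) for pgl-3. The median change of all tested genes was 0.05 there, and the percentages above are those of the fit over all embryos.

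In the step from T2 to T3, 8 of the 10 genes passed the filter on low counts. Of these, 4 were lower (glh-2, deps-1, nos-2 and csr-1) and 0 higher, where 14.1% of the 6144 genes tested were lower and 10.4% higher. A gene can pass the filter through its level in T2 alone, so the count says little of the 10 genes as a whole. Apart from glh-2 and nos-2, the genes called in this step over all embryos were other than those called in the first. A gene that was not called was not shown to be unchanged, and no test compared the steps. Within title block 5, with 7 and 9 embryos, 8 of 9 tested were lower, all but meg-2, whose change there was -0.67 (SE 0.49, adjusted p = 0.26). The median change of all tested genes was 0.01 within that block, and the percentages above are those of the fit over all embryos. With spike-in scaling the split of all calls went from 869 lower and 639 higher to 526 and 811, and 3 of the genes were lower.

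From T3 to T4 only 5 of the genes passed the filter, and 2 were lower (meg-1 and nos-2) and 0 higher, where 8.12% of the 6281 genes tested were lower and 13.6% higher. Here too a gene can pass the filter through 1 window alone. Without the 5 embryos of T4 that were off their label 4 were lower, pgl-1 (-1.51, adjusted p = 0.0218) and glh-1 (-1.14, adjusted p = 0.0331) in addition. The median change of all tested genes was 0.03 in that fit. Spike-in scaling gave 236 lower and 805 higher calls in place of 510 and 855, and 1 lower gene.

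From T1 to T4, 8 genes passed the filter and 7 were lower, where 23.0% of the 5743 genes tested were lower and 30.3% higher. The changes ran from -2.28 (SE 0.42) for csr-1 to -4.34 (SE 0.37) for meg-1. The exception was glh-1, at -0.46 (SE 0.46, adjusted p = 0.38), which was lower without the embryos off their label (-1.34, SE 0.43, adjusted p = 0.0053) and with block as a covariate (-1.05, SE 0.45, adjusted p = 0.0338). Both genes that did not pass the filter, glh-4 and meg-2, were lower when no filter was used, at -2.37 and -3.12. A gene can pass the filter through its level in T1 alone, so the count says little of the 10 genes as a whole.

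**Figure D2:**
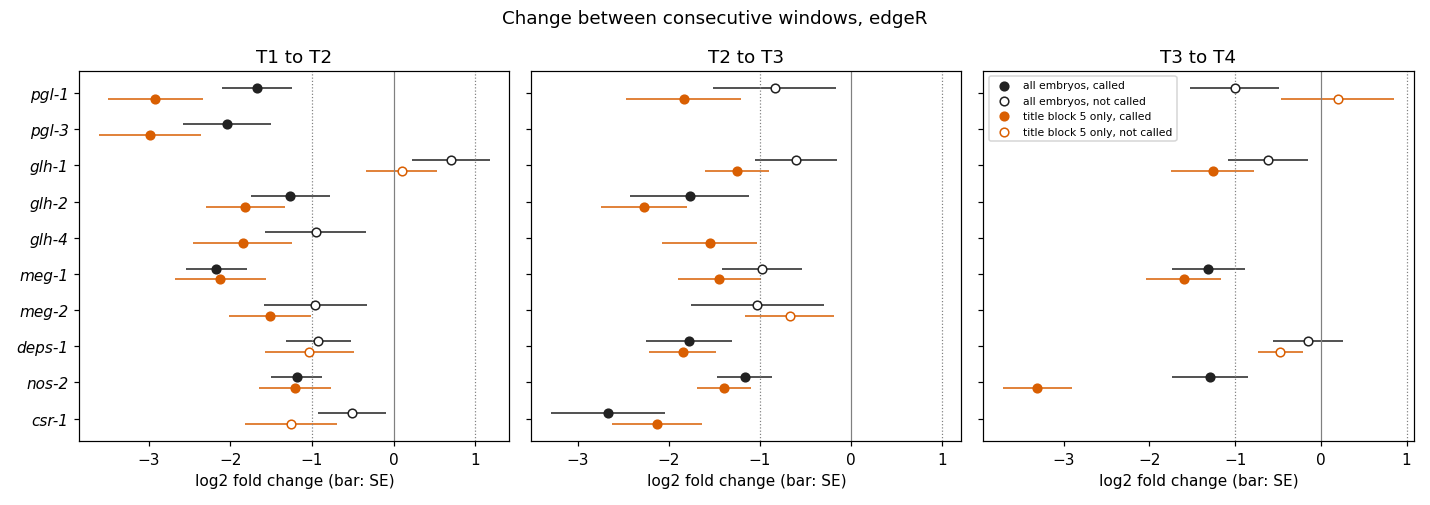
Log2 fold change with its SE for each of the 10 genes between consecutive windows, T1 to T2, T2 to T3 and T3 to T4, over all embryos (black) and within title block 5 (orange); filled points passed an adjusted p of 0.05 and a fold of 2, and genes that failed the filter on low counts have no point. From T1 to T2 pgl-1, pgl-3 and meg-1 lie lowest and glh-1 lies above 0, and from T2 to T3 csr-1 lies lowest over all embryos at -2.67.

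A rate of loss was taken from the 22 embryos of title block 5 between -50 and 190 min, 1 per time. The level of all 10 genes fell with time, where 23.4% of the 7150 genes tested fell and 29.0% rose at an adjusted p under 0.05. As in the steps between windows, a gene can pass the filter through its level in T1 alone. The count therefore says little of the 10 genes as a whole. The slope was steepest for pgl-3, at -2.11 log2 units per hour (SE 0.20, adjusted p = 4.0e-09), and for pgl-1, at -1.91 (SE 0.18, adjusted p = 3.9e-09), which as straight lines correspond to halving in 28.4 and 31.5 min. The SEs of both slopes overlap. Next came glh-2 at -1.44 (SE 0.14), then meg-1, csr-1 and glh-4, which lay together at -1.26 to -1.24 (SE 0.15 to 0.17).

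Slower were deps-1 at -1.07 (SE 0.15), nos-2 at -0.98 (SE 0.11) and meg-2 at -0.80 (SE 0.17), with halving in 56.1, 61.0 and 74.6 min. The shallowest was glh-1, at -0.48 (SE 0.16, adjusted p = 0.0145), with halving in 126 min. Of all tested genes, 0.87% had a steeper fall than pgl-3 and 19.5% a steeper fall than glh-1. The call on glh-1 was lost without the filter on low counts (-0.37, adjusted p = 0.071) and with all title blocks and block as a covariate (-0.15, adjusted p = 0.59), and between 0 and 100 min its slope was 0.24 (SE 0.51, adjusted p = 0.76). With spike-in scaling the split of all slopes went from 1675 falling and 2076 rising to 2406 and 1287, and all 10 genes still fell. Each of their slopes was steeper with that scaling, with halving in 24.0 min for pgl-3 and 80.8 min for glh-1.

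Over 0 to 100 min alone, 11 embryos, the slope of pgl-1 was -3.18 (SE 0.48, adjusted p = 7.3e-05) and that of meg-1 -2.82 (SE 0.51, adjusted p = 0.00039). There pgl-3 was less steep than both, at -2.22 (SE 0.66, adjusted p = 0.0157). The order of the slopes thus depends on the span of time that was fitted. The slopes of meg-2 and nos-2 over these embryos did not pass (adjusted p = 0.069 and 0.067).

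**Figure D3:**
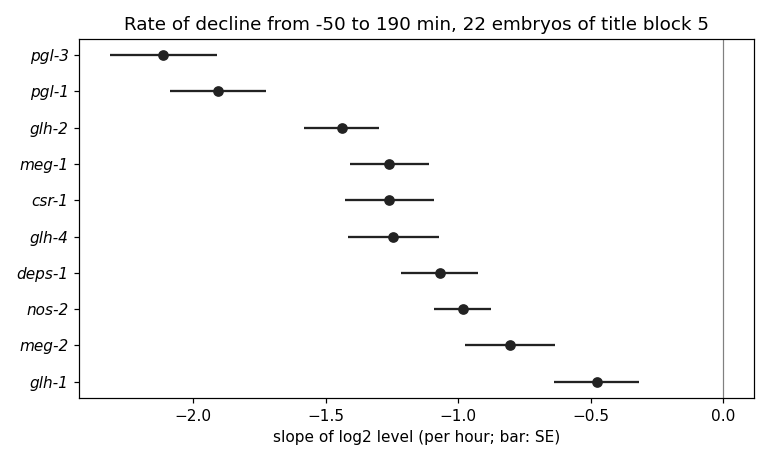
Slope of the log2 level per hour with its SE for each of the 10 genes over 22 embryos of title block 5 from -50 to 190 min (edgeR). The slopes run from -2.11 for pgl-3 to -0.48 for glh-1, and all lie below 0.

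The order of loss is visible embryo by embryo in the 39 embryos of title block 5 with over 100000 gene counts. Against the mean of the 3 such embryos up to 30 min, the running median over 3 embryos, read from 40 min on, was first below 50% at 40 min for pgl-1, pgl-3, glh-2, glh-4, meg-2 and nos-2, at 50 min for meg-1, deps-1 and csr-1, and at 80 min for glh-1. No embryo of this depth lay between 10 and 40 min, and for pgl-3 the running median was at 43.2% at 10 min already. For glh-1 it was back at 82.8% at 100 min and at 37.0% at 130 min. It was first below 10% at 60 min for pgl-1 and pgl-3, at 70 min for meg-1, at 80 min for glh-2, glh-4, deps-1 and csr-1, and at 170 min for nos-2 and meg-2. For glh-2 and glh-4 the running median at 80 and 90 min was 5.05 CPM, the worth of 1 count in the shallowest embryo of T2. At 100 and 110 min it was back at 12.4% for glh-2 and 15.4% for glh-4, so their place in the order is uncertain. For nos-2 it was at 10.2% from 140 to 160 min, just above that mark, while for pgl-1 it was at 0.53% to 4.4% between 80 and 180 min. At 40, 50, 60 and 70 min glh-1 was at 71.6, 75.4, 83.9 and 71.4 CPM, against 87.5, 86.6 and 65.2 CPM in the embryos at -50, -30 and 10 min. In the same 4 embryos pgl-1 was at 137, 106, 60.6 and 58.0 CPM.

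Whether paralogs changed by different amounts was asked with the ratio of their levels within an embryo, log2 of CPM + 10 of one gene over CPM + 10 of the other, in 6 permutation tests with p-values adjusted over the 6. The mean log2 ratio of glh-1 to glh-2 was -1.03 ± 1.29 (SD, n = 17) in T1 and 0.96 ± 1.51 (SD, n = 11) in T2. It rose by 2.00 (two-sided permutation test with 100000 resamples, adjusted p = 0.0029). Within title block 5 the rise was 2.25 (exact permutation test, adjusted p = 0.0070), from -1.31 ± 1.27 (SD, n = 6) to 0.94 ± 0.62 (SD, n = 7). On average glh-2 was thus the more abundant of the pair in T1 and glh-1 in T2.

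The log2 ratio of meg-1 to meg-2 was 3.08 ± 1.21 (SD, n = 17) in T1 and 1.31 ± 1.16 (SD, n = 11) in T2, a change of -1.78 (permutation test, adjusted p = 0.0026), and within title block 5 the change was -1.76 (exact permutation test, adjusted p = 0.0210). With a pseudocount of 1 CPM it was -1.98 with an adjusted p of 0.075 (permutation test). Counts of meg-2 were found in 13 of 17 embryos of T1 and 9 of 11 of T2. On average meg-1 exceeded meg-2 in both windows, and by less in T2. The log2 ratio of pgl-1 to pgl-3 was 2.80 ± 1.44 (SD, n = 17) and 1.72 ± 1.09 (SD, n = 11), and its difference of -1.08 did not pass (permutation test, p = 0.0400, adjusted p = 0.0800). No ratio passed between T2 and T3, where the differences were 0.30, -0.30 and -0.15 (permutation tests, adjusted p = 0.66 to 0.71). CEL-Seq reads the ends of transcripts, so these ratios were not scaled for length. The counter for reads with more than 1 alignment held no reads in any embryo, and how reads common to both paralogs were assigned is not known here.

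**Figure D4:**
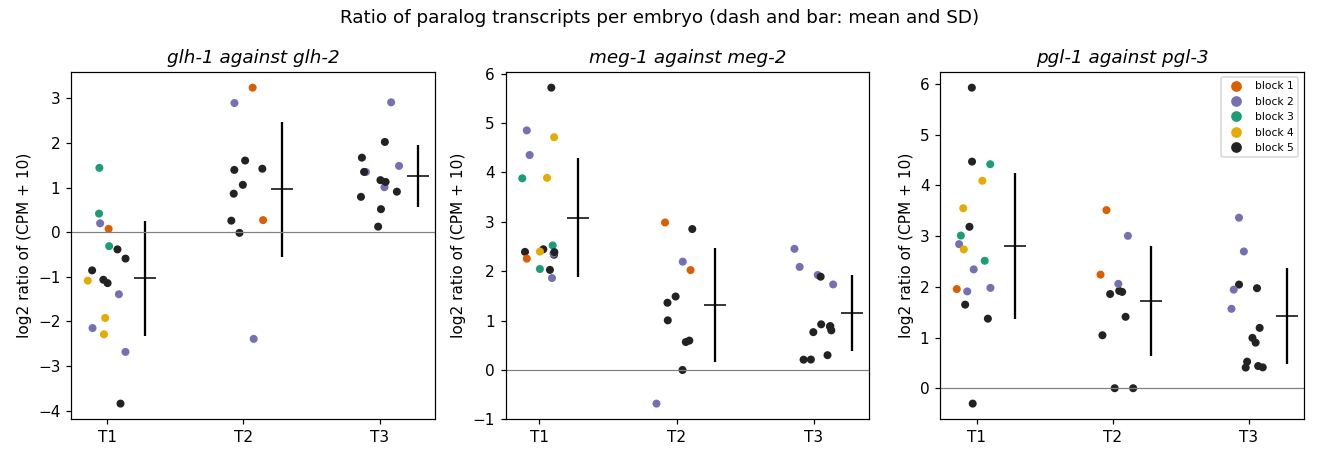
Log2 ratio of (CPM + 10) of paralogs per embryo in T1, T2 and T3, for glh-1 against glh-2, meg-1 against meg-2 and pgl-1 against pgl-3, coloured by title block, with the mean (dash) and SD (bar) of each window. The glh-1 to glh-2 ratio goes from a mean of -1.03 to 0.96 and stays at 1.26 in T3, while the meg-1 to meg-2 ratio goes from 3.08 to 1.31 and 1.16.

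Later windows held little of most of the 10 transcripts, and levels there differed between title blocks. Medians in T4, T5, T6 and T7 were 2.33, 3.39, 8.23 and 8.42 CPM for pgl-3, 5.19, 4.78, 8.67 and 2.00 CPM for glh-2, and 3.82, 4.05, 2.41 and 0 CPM for glh-4. For csr-1 they were 5.92, 12.9, 24.7 and 26.0 CPM, each median above the one before, although neither T4 to T5 nor T5 to T6 nor T6 to T7 passed the test for csr-1 over all embryos. From T4 to T5, 5 of the genes passed the filter and 0 were lower and 0 higher by edgeR, where 7.36% of the 6684 genes tested were lower and 8.80% higher. At an unadjusted p under 0.05 there was 1, pgl-1 (0.90, SE 0.42, p = 0.039), and DESeq2 called pgl-1 (1.04, adjusted p = 0.0346). Without the 6 embryos of these windows off their label, pgl-1 (1.14, adjusted p = 0.0170) and csr-1 (1.54, adjusted p = 0.0040) were higher in T5. Within title block 5 the change of pgl-1 was 0.53 (SE 0.47, adjusted p = 0.39), and with spike-in scaling it was 0.29 (SE 0.48, adjusted p = 0.67). With block as a covariate glh-1 (1.09, adjusted p = 0.0475) and csr-1 (2.01, adjusted p = 0.0028) were higher. In title block 5, pgl-1 ran from 0 to 31.3 CPM with a median of 7.21 in 9 embryos at 150 to 230 min, and from 16.5 to 67.2 CPM with a median of 26.3 in 12 embryos at 300 to 420 min. In the same embryos nos-2 went the other way, from a median of 49.6 CPM to a median of 7.80 CPM. These values are a description, with no test. Scaling to spike-in RNAs moved the split of all calls from 492 lower and 588 higher to 1050 and 206, with 0 of the genes in either.

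From T5 to T6, 6 genes passed the filter, and 1, glh-1, was higher by 1.20 (SE 0.40, adjusted p = 0.0175) and 0 lower, where 9.21% of the 6941 genes tested were lower and 16.9% higher. It ran from 0 to 133 CPM in T5 with a median of 22.2 and from 0 to 122 CPM in T6 with a median of 37.3, so the windows overlapped. Within title block 5, with 10 and 3 embryos, the change was 0.06 (SE 0.43, adjusted p = 0.96), and with block as a covariate -0.022 (SE 0.53, adjusted p = 0.99). With spike-in scaling it was 1.05 (SE 0.49, adjusted p = 0.120), and the only one of the genes higher was then nos-2 (1.71, SE 0.54, adjusted p = 0.0166). Without the 2 embryos off their label glh-1 was higher by 1.16 (SE 0.38, adjusted p = 0.0131), and nos-2 and csr-1 were higher too. The rise did not hold within that block, and block and age cannot be told apart for most of these embryos, since T5 held none of title block 1. With relative log expression factors the split of all calls went from 639 lower and 1171 higher to 943 and 1034.

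The blocks differed for several of the genes. In T6 the median of deps-1 was 103 CPM in the 18 embryos of title block 1 (13.7 to 270) and 6.72 CPM in the 3 of title block 5 (6.24 to 12.5). For nos-2 the medians were 59.0 and 10.2 CPM, for pgl-1 77.7 and 21.0 CPM, for glh-1 65.0 and 19.8 CPM and for csr-1 43.0 and 5.10 CPM. Each was higher in title block 1, though that block also held embryos with 0 CPM of nos-2, pgl-1, glh-1 or csr-1. At 410 and 420 min, where both blocks hold 1 embryo per time, nos-2 was at 90.0 and 93.4 CPM in title block 1 and at 1.13 and 10.2 CPM in title block 5.

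Other lists were read for the same step. From T5 to T6, 6 of 15 tested RNA regulators of the germline precursor were higher, mex-3 by 2.15 and puf-11 by 1.99 among them, as were 2 of 6 tested markers of the meiotic adult gonad, cbd-1 by 1.97 and rme-2 by 1.53, and 4 of 6 yolk genes, vit-5 by 1.30 and vit-4 by 1.25 with the largest rises, where 16.9% of all genes tested were higher. Of the other lists, 0 of 7 P granule genes, 1 of 11 small RNA genes (simr-1, by 2.90) and 0 of 11 chromatin genes were higher, and 3 of the chromatin genes were lower. Without the embryos off their label, 10 of 16 RNA regulators, 3 of 6 gonad markers and 6 of 6 yolk genes were higher. With the embryos of title block 5 alone, edgeR called 0 of 17, 0 of 10 and 0 of 6, with medians of -0.31, -0.018 and -0.44, and 0, 1 and 0 had an unadjusted p under 0.05. The median over all tested genes was -0.07 both without the embryos off their label and in title block 5 alone. Summed over 10 gonad markers, all of them detected, T6 ran from 199 to 1636 CPM in title block 1 with a median of 840 and from 85.6 to 166 CPM in title block 5 with a median of 121. Summed yolk transcripts had medians of 8477 CPM (2845 to 16791) and 2055 CPM (978 to 2154) in the same embryos. The part of these transcripts in the late levels of the 10 genes was not tested. The sperm list, 24 genes with none passing the filter, had medians of 139 and 13.3 CPM there.

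The 3 embryos of title block 2 off their label were the highest of their windows for nos-2, with 1622 CPM at 200 min, 642 CPM at 340 min and 588 CPM at 400 min. They held 17878, 88778 and 124051 gene counts. In the same embryos deps-1 was at 2181, 552 and 226 CPM, and pgl-1 was at 0, 338 and 0 CPM.

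From T6 to T7, 5 genes passed the filter and 0 were lower and 0 higher by edgeR, where 15.6% of the 5288 genes tested were lower and 13.3% higher. None had an unadjusted p under 0.05, and DESeq2 called 0. With spike-in scaling the split of all calls went from 826 lower and 704 higher to 1231 and 532, and with relative log expression factors to 1118 and 618. All embryos of T7 came from title block 1. There nos-2 ran from 0 to 282 CPM with a median of 62.6, deps-1 from 0 to 311 CPM with a median of 84.9, pgl-1 from 0 to 553 CPM with a median of 39.4, glh-1 from 0 to 507 CPM with a median of 36.7 and csr-1 from 0 to 114 CPM with a median of 26.0. By then meg-1 had counts in 14 of 25 embryos and glh-4 in 12 of 25.

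**Figure D5:**
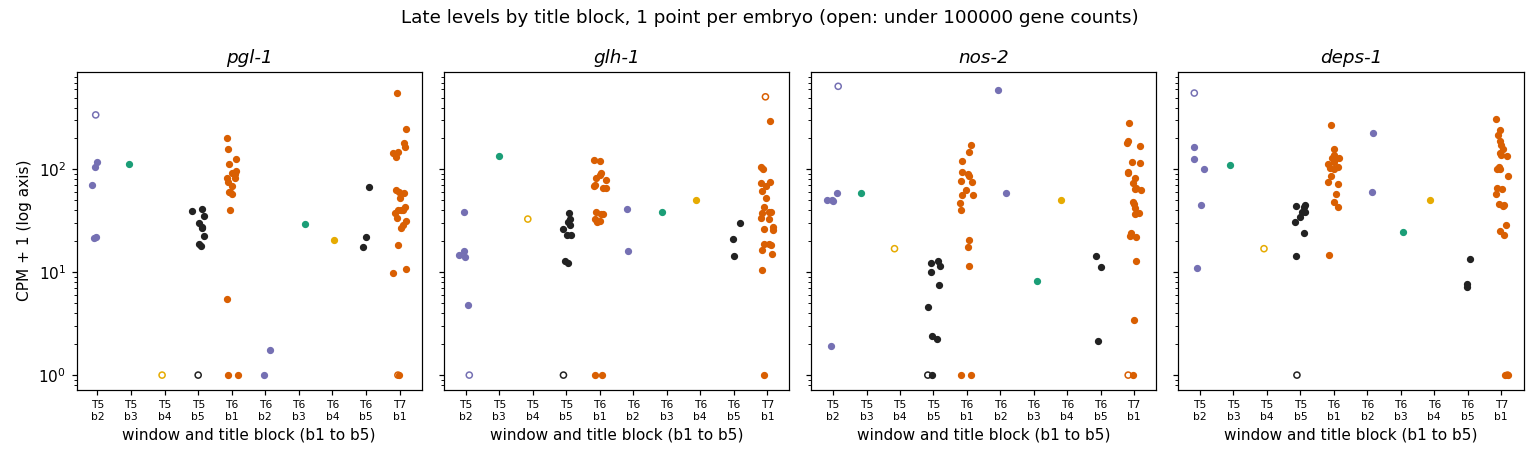
Level in CPM + 1 (log axis) of pgl-1, glh-1, nos-2 and deps-1 in the embryos of T5, T6 and T7 by title block (b1 to b5), 1 point per embryo, with open points for embryos under 100000 gene counts. In T6 most embryos of title block 1 lie above those of title block 5, with medians of 59.0 against 10.2 CPM for nos-2 and 103 against 6.72 CPM for deps-1.

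Other genes of the same pathways were read from 4 lists. From T1 to T2 the median change over all tested genes was -0.04, with 14.5% of them lower and 15.1% higher. Of 17 tested genes for other P granule proteins 8 were lower and 0 higher, with a median of -1.16. The largest falls were those of pgl-2, a further member of the PGL family, from 38.6 ± 36.7 to 5.92 ± 7.11 CPM, and of mip-1, which encodes a LOTUS-domain protein, from 125 ± 39.6 to 19.8 ± 16.6 CPM (mean ± SD, n = 17 and n = 11). Their changes were -2.40 (SE 0.63) and -2.30 (SE 0.35).

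Of 16 tested RNA regulators of the germline precursor 14 were lower and 0 higher, with a median of -1.65. Among them oma-2 went from 1565 ± 1352 to 221 ± 143 CPM and mex-5 from 1018 ± 387 to 189 ± 122 CPM, both CCCH zinc finger proteins of the oocyte and early embryo. Of 14 tested genes of the CSR-1 and germline small RNA pathways 4 were lower and 0 higher, with a median of -0.52. These were mut-2 (-2.03), the RNA-dependent RNA polymerase ego-1 (-1.70), the nuclear Argonaute hrde-1 (-1.69) and tofu-5 (-1.62), the last 2 named after their values were seen. In title block 5 alone, 7 of the 14 were lower, and the median over all tested genes was 0.05.

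Of 11 tested chromatin regulators of the germ line 3 were lower and 2 higher with a median of -0.10, near that of all genes. The lower ones were xnd-1 (-1.27), the histone methyltransferase mes-4 (-1.21) and, named after its value was seen, mes-2 (-1.01), a Polycomb-group methyltransferase. The higher ones were lin-15B (1.29) and the histone H2A.Z gene htz-1 (1.19), whose level went from 2511 ± 502 to 4214 ± 1736 CPM (mean ± SD, n = 17 and n = 11). Of 10 tested meiotic markers of the adult gonad 4 were lower and 0 higher, among them him-3 (-1.95) and puf-5 (-1.89), while the 6 yolk genes had a median of 1.67 with none past the threshold.

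From T2 to T3, 5 of 12 tested P granule genes were lower (pid-2 with -2.27 and mip-2 with -2.06 among them), as were 9 of 15 RNA regulators (gld-3 with -3.07 and oma-1 with -2.97 among them), and 0 of either were higher, where 14.1% of all genes tested were lower and 10.4% higher with a median of -0.05. Medians were -1.25 for the P granule genes and -1.43 for the RNA regulators. In the CSR-1 and small RNA list 3 of 12 were lower, ekl-1 (-2.14) and drh-3 (-1.83), which act in making the small RNAs that CSR-1 binds, and ergo-1 (-1.49, named after its value was seen), and 1 was higher, rrf-3 (1.57). Of 11 chromatin genes 1 was lower, xnd-1 (-1.60), and 1 higher, met-2 (1.25). Medians of the small RNA and chromatin lists were -0.40 and 0.22. In title block 5 alone, 8 of 15 P granule genes, 14 of 15 RNA regulators and 5 of 13 small RNA genes were lower, and 3 of the small RNA genes were higher. The median over all tested genes was 0.01 there, and the percentages above are those of the fit over all embryos.

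From T1 to T4, 13 of 14 tested P granule genes, 15 of 15 RNA regulators, 7 of 12 small RNA genes and 2 of 11 chromatin genes were lower and 0 of any list higher, with medians of -2.78, -4.08, -1.03 and 0.04 against 0.06 over all genes, of which 23.0% were lower and 30.3% higher. Without the embryos off their label the counts were 14 of 14, 15 of 15, 7 of 12 and 3 of 11, the median over all genes was -0.33, and 5 of 6 yolk genes were lower. The changes were -3.89 for mip-2 and -3.67 for wago-1 among P granule genes, -4.87 for cpb-3 and -4.74 for mex-6 among RNA regulators, and -3.81 for hrde-1 and -2.38 for tofu-5 in the small RNA list. Of the markers of the meiotic adult gonad 8 of 8 tested were lower, and of the somatic embryo markers 5 of 5 were higher (4 of 5 without the embryos off their label), elt-2 by 5.94 and hlh-1 by 4.71. Genes that passed the filter through T1 alone had to differ, so the counts say little of the lists as a whole. The list counts of T1 to T2 and T2 to T3 share this limit, as a gene can pass there through the earlier window alone.

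Over the 45 embryos of title block 5 the levels of the 10 genes went together to different degrees. Pearson's r of log2(CPM + 10) ran from 0.32 for glh-1 with glh-4 to 0.89 for glh-2 with meg-1. The embryos share age and differ in depth, and r is a description over them. Of 6043 genes with a mean of at least 20 CPM, the profile most like that of glh-2 was that of mex-5 (r = 0.97), followed by F32D1.7 and sun-1 (r = 0.95 for both). For pgl-1 the closest were hrde-1, oma-2 and R02F2.4 (r = 0.88 to 0.89), for meg-1 gyg-2, puf-6 and zif-1 (r = 0.92 to 0.94), and for nos-2 asfl-1, F26G5.1 and cey-3 (r = 0.91 to 0.92). Lower likeness was found for pgl-3, with gldi-5, cpg-4 and memi-3 (r = 0.84 to 0.85), glh-4, with htp-1, F40G12.11 and syp-4 (r = 0.84 to 0.85), csr-1, with htp-1, sahd-1 and ubxn-6 (r = 0.77 to 0.82), and glh-1, with pssy-2, mage-1 and dpf-3 (r = 0.80 to 0.81). The closest to meg-2 were cpna-3, F25B5.3 and gei-14 (r = 0.85 to 0.88), and to deps-1 edg-1, rpt-4 and czw-1 (r = 0.87 to 0.89).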

How the data were processed

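Single embryos were measured by CEL-Seq. The authors' deposited file is 1 table of raw counts, by gene and embryo, with 20687 gene lines, 92 spike-in lines and 5 counter lines and no normalization. CASAVA 1.8, HTSeq 0.5.4p3 and Bowtie2 2.1.0 are named in the submitters' processing notes, which assign them no step here. No source used here gives the genome build. No molecular identifiers are named, so counts are reads after amplification. Of all reads, 47.2% were counted in genes and 52.6% in the counter lines, which stayed out of library sizes and tests. Ensembl release 115 gave symbols, chromosomes and overlaps, and 20083 of the gene lines had 1 match in it.

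For CPM, each embryo's gene counts were scaled to one total. Differences between windows were tested in R 4.3.3 by edgeR 4.0.16 (TMM factors, filterByExpr with a minimum count of 10, quasi-likelihood F-test, only the embryos of the windows compared), with Benjamini-Hochberg adjustment over all genes tested. Calls of lower or higher needed an adjusted p below 0.05 together with a change of 2 times or more. The slopes and the test over all 7 windows had no fold threshold. To find embryos off their label, an embryo's age was read from its correlation with profiles of 8013 genes, smoothed over the other embryos (Gaussian, SD 20 min). Counts of all 109 pairs of equal labelled time differed beyond sampling noise (chi-square over its degrees of freedom at least 2.63), so none were merged. The alternatives were relative log expression factors, spike-in scaling, no filter, DESeq2 1.42.0, no fold threshold, title blocks and embryos left out. The edgeR fits of T1 to T2 and of the slope were tested on simulated data, with no fold threshold. Of 100 genes given a change of 2 times, 21 were called, and of 100 given 4 times, 80. Of 5436 unchanged genes, 3 were called. Of 100 slopes of 0.5 log2 units per hour 26 were called, and of 100 slopes of 1.0, 88. A gene that did not pass may therefore have changed. Python 3.11.15 with pandas 2.3.3, scipy 1.17.1, numpy 2.4.6 and matplotlib 3.10.9 gave the permutation tests and plots.

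The 10 genes and the lists were chosen with earlier results of these data known. All 10 are named, and from each list, per comparison, the called genes with the 2 largest rises and the 2 largest falls, if their mean reached 20 CPM in the higher window. For likeness, the 3 closest genes are named.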

Additional observations from a re-analysis of the deposited data

How the results depend on the processing

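Of 157 alternatives to the counts and ratios reported, 137 kept the direction and the side of the threshold or a count within 1.5 times. Counts of 0 that stayed at 0 are among the 137, and the main fit held such a count in most steps. The number therefore says little of how firm the calls are. Within title block 5, 8 genes were lower from T2 to T3, 4 from T1 to T4 (only 4 were tested), and 1 was lower and 0 higher from T5 to T6. Lower genes from T3 to T4 numbered 1 with relative log expression factors, 1 with spike-in scaling, 1 with DESeq2 and 4 without the embryos off their label. From T4 to T5, DESeq2 made 1 gene higher, block as a covariate 2 and leaving out the embryos off their label 2. From T5 to T6, 0 were higher and 1 lower with no filter, 0 higher with block as a covariate, 3 higher with DESeq2, 3 without the embryos off their label and 2 without those under 100000 counts. Of single genes, 4 reversed: glh-1 from T4 to T5 with block as a covariate (1.09) and from T5 to T6 likewise (-0.022), deps-1 from T5 to T6 within title block 5 (-1.71), and the slope of glh-1 over 0 to 100 min (0.24). With a pseudocount of 1 CPM the log2 ratio of meg-1 to meg-2 changed by -1.98 from T1 to T2 and no longer passed, and from T2 to T3 the ratios of pgl-1 to pgl-3 (0.52) and meg-1 to meg-2 (0.15) reversed without passing. The cause was not tested. Of the other single-gene values, 444 kept their call of lower, higher or not called, 24 newly passed and 14 no longer passed. A change of sign between values called in neither fit was left among the 444 and not taken as reversed. Spike-in scaling shifted the median of all genes by -0.67 from T1 to T2, 0.28 from T2 to T3, 0.29 from T3 to T4, -0.51 from T4 to T5, -0.29 from T6 to T7 and -0.21 from T1 to T4. The fit of slopes without embryos under 100000 counts was chosen after seeing the data, and 10 genes fell in it. Depth limits the late windows, where 3 counts were worth up to 168 CPM in T4, 243 CPM in T5, 24.2 CPM in T6 and 76.1 CPM in T7. No paired analysis was possible because each embryo was measured once and the labels link no embryos across windows.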
